A study of Homo sapiens with 6 samples.

Results

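The genes described here are 37 transcripts tied to the amino-acid stress response that the transcription factor ATF4 controls, out of 48162 genes in the count table. They were chosen by name: ATF4 itself, the transcription factors that pair with it, its feedback regulators, and its target genes for amino-acid synthesis, amino-acid transport and secretion. All 37 had a row in the table and passed the filter on low counts. SiHa, an established cell line from a human cervical carcinoma, was transfected either with a small interfering RNA (siRNA), si-CNN3#1, that targets the actin-binding protein calponin 3 (CNN3), or with the control siRNA si-NC. Each group held 3 samples. The transfection medium was replaced after 24 h according to the sample labels, and RNA was taken 48 h after transfection. A single siRNA against CNN3 was sequenced, so an effect of losing CNN3 and an effect of that sequence cannot be told apart in these libraries. The sense strands are shown because they are what the labels give as the difference between the groups, with the TT overhang in capitals.

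si-CNN3#1: gcagaugggaaccaacaaaTT
si-NC: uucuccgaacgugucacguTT

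ATF4 acts downstream of the integrated stress response. Kinases that sense amino-acid shortage (GCN2), misfolded protein in the endoplasmic reticulum (PERK), double-stranded RNA (PKR) or haem shortage and mitochondrial stress (HRI) phosphorylate the initiation factor eIF2, which lowers general translation while the ATF4 transcript is translated more. ATF4 protein then binds DNA with C/EBP partners and raises genes that make, import and economise amino acids, together with feedback genes that restrain the response. Since this control acts largely on translation, the ATF4 transcript level is not a measure of ATF4 protein, and RNA sequencing measures the transcript alone.

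The si-CNN3 libraries held 18147028 to 19026341 counts on genes and the si-NC libraries 20287139 to 24976517. Within a group, any pair of samples gave a chi-square of 1.56 to 1.98 per degree of freedom, above what sampling alone gives. That excess cannot tell separate cultures from separate libraries of the same culture. The fitted common coefficient of variation between samples, beyond counting noise, was 0.0232. Each sample was kept as a replicate. The study's methods describe independent assays, but the labels do not state separate cultures, and the p-values measure the spread between these samples. The epithelial keratin KRT8 was read at 533 ± 22.5 normalized CPM (counts scaled by library size; SD, n = 3) with si-CNN3 and 608 ± 19.95 CPM with si-NC. KRT8 and KRT18 fell, with log2 fold changes of -0.19 and -0.18, and the epithelial markers KRT19, EPCAM and CDH1 did not pass the test described next. The part of this difference in the results that follow was not tested. The leukocyte marker PTPRC stayed at 0.632 CPM or below on average and the fibroblast marker PDGFRB at 0.532 CPM or below, while a second fibroblast gene, COL1A1, was at 3.92 ± 0.364 CPM with si-CNN3 and 4.46 ± 0.292 CPM with si-NC on 66 to 109 reads per sample. None of these 3 genes passed the test, and the groups overlapped in each. In such bulk samples, fewer cells of a kind and less RNA per cell cannot be told apart. The targeted gene followed the labels: CNN3 was at 26.0, 26.8 and 31.4 CPM in the si-CNN3 samples and at 56.5, 51.7 and 57.2 CPM in the si-NC samples, a log2 fold change of -0.97 (SE 0.06). The exact two-sided permutation test gave p = 0.1 for CNN3, the smallest value that 3 samples against 3 allow.

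Most of the members that passed the test were higher with si-CNN3. With edgeR's quasi-likelihood test and Benjamini-Hochberg adjustment over all 15860 tested genes, 17 members rose, 3 fell and 17 did not pass an adjusted p of 0.05. Thus 54.1% of the members were called, where 13.3% of all tested genes were called, 6.17% higher and 7.14% lower. The members were chosen with earlier results of these data known, so this contrast is not independent support. The median log2 fold change was 0.08 over the members and 0.00 over all tested genes. Over all tested genes, 978 were called higher and 1133 lower. The counts were 1046 and 1010 with upper-quartile scaling, and 1294 and 863 when scaled by total counts alone. Which direction held more calls thus depended on the scaling. The normalized levels of both groups did not overlap for 24 members, among them all 20 that were called, and this held for 28.2% of all tested genes. The differences were modest. Of the 20 called members, 15 had an absolute log2 fold change of at least 0.2, and CHAC1, ADM2 and SLC7A11 alone exceeded 0.5. Among all 2111 called genes, 213 (10.1%) reached that size. Without any 1 sample, between 14 and 15 members were higher and between 2 and 3 were lower.

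**Figure D1:**
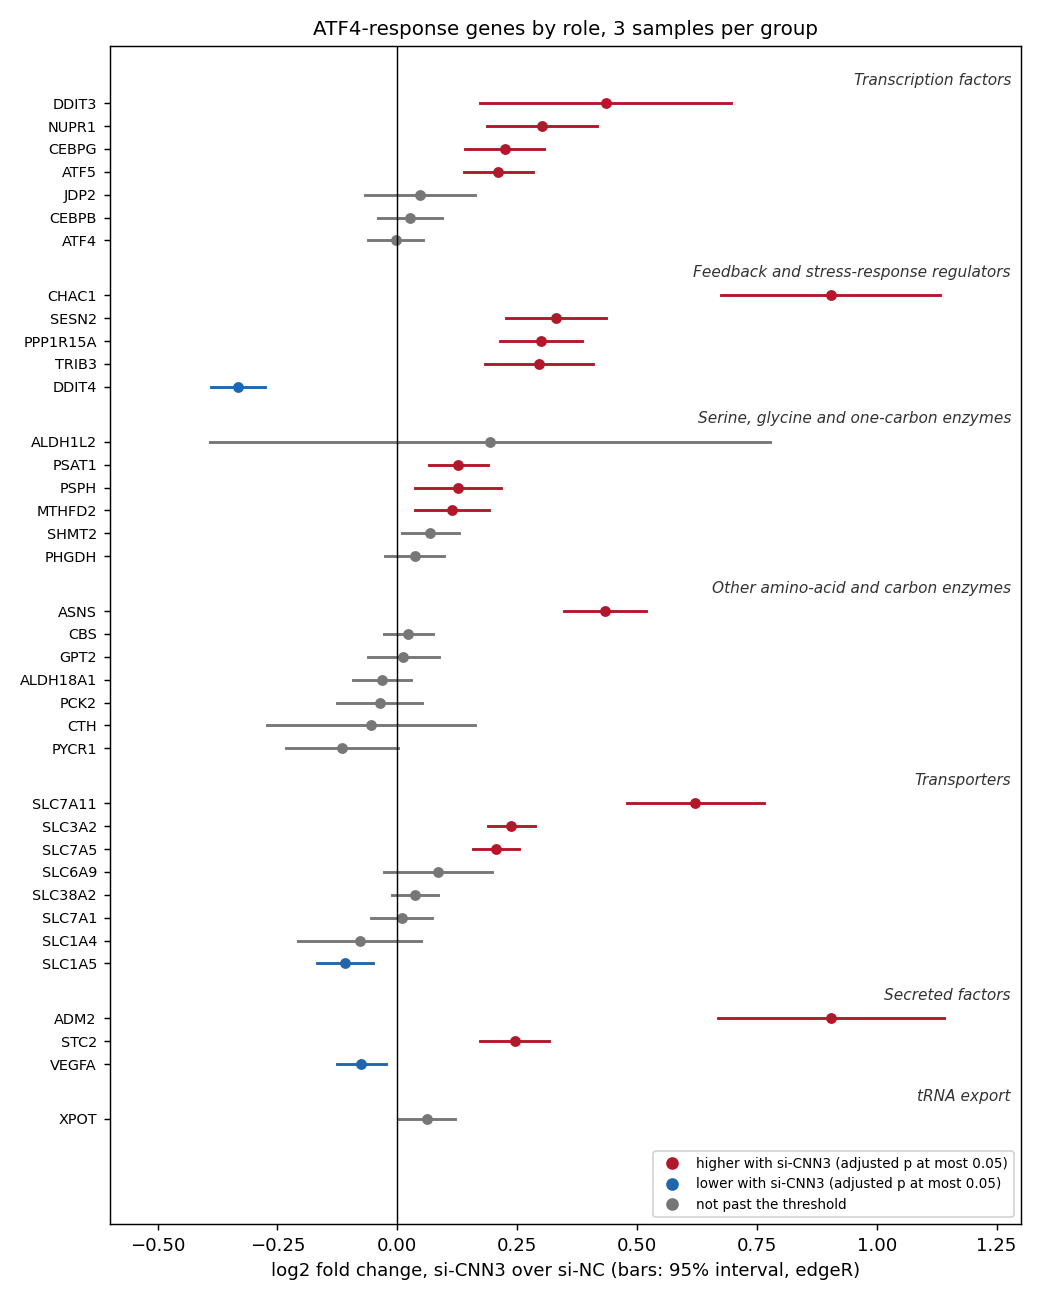
Log2 fold change of each of the 37 members (x axis, si-CNN3 over si-NC) with its 95% interval, grouped by role, from 3 samples per group. Red genes rose, blue genes fell and grey genes did not pass an adjusted p of 0.05; CHAC1 and ADM2 lie farthest to the right at 0.90, DDIT4 farthest to the left at -0.33, and ATF4 at 0.00.

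Among the 7 transcription factors, DDIT3, NUPR1, CEBPG and ATF5 rose, none fell, and ATF4, CEBPB and JDP2 did not pass the test. ATF4, which drives the programme, was at 345, 320 and 345 CPM in si-CNN3 samples 1 to 3 and at 347, 327 and 339 CPM in the si-NC samples. The groups overlapped throughout. The fitted difference in ATF4 was 0.00 (SE 0.03) on the log2 scale, its 95% interval ran from -4.08% to 3.75%, and the adjusted p was 0.96. Between 6153 and 8137 reads per sample stood behind these values, and over the 17 alternative settings the log2 fold change ran from -0.03 to 0.03. The exact two-sided permutation test gave p = 0.8 for ATF4.

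DDIT3 encodes CHOP, a C/EBP-family factor induced by ATF4 and linked to cell death under prolonged stress. Its level was 6.10, 6.20 and 5.59 CPM with si-CNN3 and 5.38, 3.94 and 4.03 CPM with si-NC. The lowest si-CNN3 sample lay just above the highest si-NC sample, which stood apart from the other two. The log2 fold change was 0.43 (SE 0.13, adjusted p = 0.0172, edgeR), on 87 to 119 reads per sample. This was the least secure of the larger changes: the adjusted p rose to 0.058 without si-CNN3 replicate 1, 0.0667 without si-CNN3 replicate 2, 0.126 without si-NC replicate 2 and 0.0938 without si-NC replicate 3, while the log2 fold change ranged from 0.35 to 0.58 over the 6 samples left out in turn. DESeq2 gave an adjusted p of 0.171. Exons of DDIT3 overlap those of MARS1 and MBD6 on the other strand. MARS1, with 3156 to 3805 reads, was itself higher by 0.18 (SE 0.03), and the part of its reads in the DDIT3 value was not tested.

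NUPR1, a small stress-induced chromatin protein that acts beside ATF4, was at 30.3, 30.3 and 31.4 CPM with si-CNN3 and at 25.3, 25.9 and 23.4 CPM with si-NC. Its groups were clearly separate, with a log2 fold change of 0.30 (SE 0.06, adjusted p = 9.83e-05, edgeR). CEBPG, the C/EBP protein that dimerises with ATF4 on its target sites, was at 66.4, 65.3 and 67.8 CPM with si-CNN3 and at 57.8, 56.6 and 56.4 CPM with si-NC. Replicates of CEBPG differed far less than the groups did, and the log2 fold change was 0.22 (SE 0.04, adjusted p = 4.49e-05, edgeR). ATF5, a relative of ATF4 whose own translation responds to eIF2 phosphorylation, was at 89.3, 91.5 and 92.7 CPM with si-CNN3 and at 78.8, 77.9 and 79.8 CPM with si-NC. The ATF5 groups did not overlap either, at a log2 fold change of 0.21 (SE 0.04, adjusted p = 1.36e-05, edgeR). Exons of ATF5 overlap the more abundant NUP62 on the other strand, which fell by 0.09 (SE 0.03) on the log2 scale. CEBPB, a C/EBP factor also used in inflammatory responses, had a log2 fold change of 0.03 with a 95% interval from -0.04 to 0.09. JDP2, a repressor-type partner of the AP-1 and CHOP proteins, had 0.05 with an interval from -0.07 to 0.16. For both of these the groups overlapped.

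All 5 feedback and stress-response regulators were called, 4 of them higher and DDIT4 lower. CHAC1 degrades glutathione and is induced through ATF4 and CHOP. It was at 8.17, 8.23 and 8.44 CPM with si-CNN3 and at 4.34, 4.34 and 4.59 CPM with si-NC, so the 3 replicates of each group nearly coincided. The fold change was 1.87 (log2 0.90, SE 0.11, 95% interval 0.68 to 1.13, adjusted p = 1.54e-08, edgeR), on 87 to 158 reads per sample. The exact two-sided permutation test gave p = 0.1 for CHAC1, the smallest possible here. The sestrin SESN2 senses leucine and restrains mTORC1. Its level was 42.1, 39.9 and 45.6 CPM with si-CNN3 and 33.1, 34.4 and 33.8 CPM with si-NC. The treated samples of SESN2 varied more than the controls but all lay above them, with a log2 fold change of 0.33 (SE 0.05, adjusted p = 2.62e-06, edgeR).

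PPP1R15A encodes GADD34, the inducible phosphatase subunit that removes the phosphate from eIF2 and so closes the feedback loop. It was at 63.7, 62.9 and 64.8 CPM with si-CNN3 and at 53.4, 52.4 and 49.6 CPM with si-NC. The gap between the PPP1R15A groups exceeded the range within either of them, and the log2 fold change was 0.30 (SE 0.04, adjusted p = 2.83e-07, edgeR). TRIB3, a pseudokinase that binds ATF4 and dampens its activity, was at 36.9, 36.8 and 41.6 CPM with si-CNN3 and at 30.0, 30.3 and 33.6 CPM with si-NC. Sample 3 was the highest of its group in both conditions, and the groups did not overlap. The log2 fold change of TRIB3 was 0.30 (SE 0.06, adjusted p = 7.83e-05, edgeR), and limma on log2(FPKM + 1) with no filter on low values gave an adjusted p of 0.069.

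DDIT4 went the other way. This gene encodes REDD1, an mTORC1 inhibitor induced by ATF4 but also by hypoxia and glucocorticoids. It was at 357, 351 and 336 CPM with si-CNN3 and at 456, 436 and 422 CPM with si-NC, and every si-CNN3 sample lay well under every control. DDIT4 fell by 0.33 on the log2 scale (SE 0.03, 95% interval -0.39 to -0.28), to 79.5% of the control level, with an adjusted p of 4.82e-14 by edgeR. No other member had a smaller adjusted p, and 6135 to 10859 reads per sample stood behind it. The exact two-sided permutation test gave p = 0.1 for DDIT4.

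**Figure D2:**
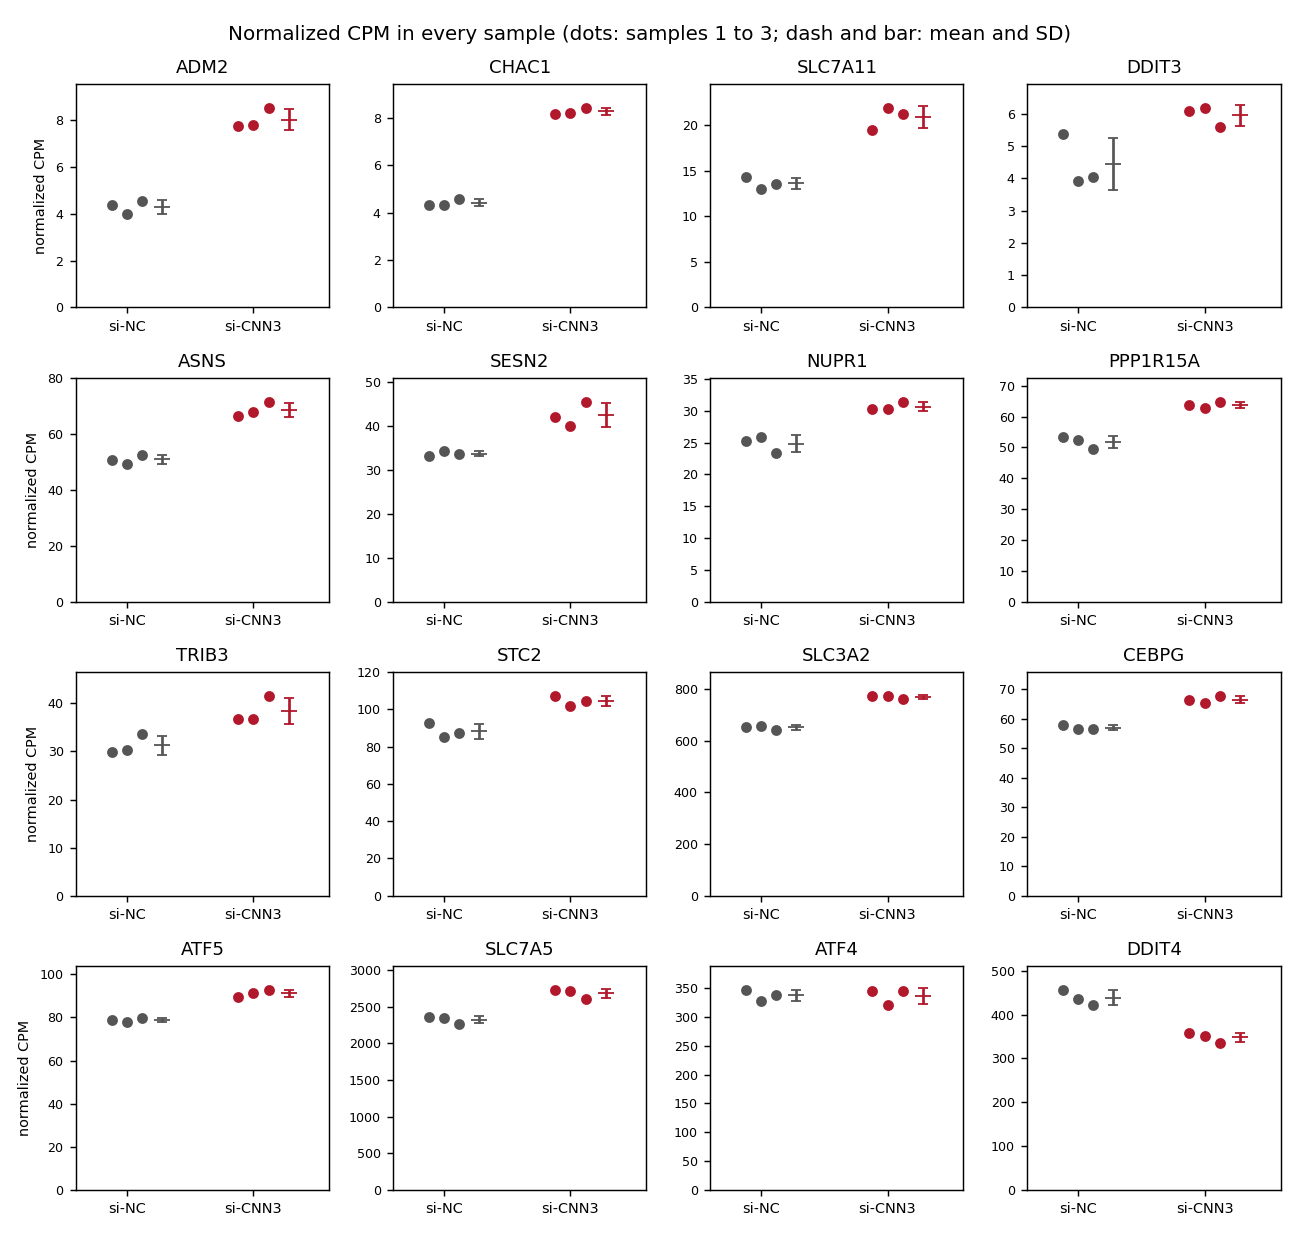
Normalized CPM (y axis, from 0) in each of the 3 si-NC (grey) and 3 si-CNN3 (red) samples for ATF4 and the 15 called members with an absolute log2 fold change of at least 0.2; the dash and bar beside the dots are the mean and SD. The groups are separate in every panel except ATF4, and only DDIT4 is lower with si-CNN3.

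The serine, glycine and one-carbon branch moved little. Of its 6 enzymes, PSAT1, PSPH and MTHFD2 rose, none fell, and PHGDH, SHMT2 and ALDH1L2 did not pass the test. The median of the branch was 0.12 on the log2 scale. PHGDH, PSAT1 and PSPH make serine from a glycolytic intermediate in that order, and SHMT2 and MTHFD2 carry its carbon into the mitochondrial folate pathway. PSAT1 was at 191 ± 6.36 CPM with si-CNN3 and 175 ± 6.48 CPM with si-NC (SD, n = 3), a log2 fold change of 0.13 (SE 0.03, adjusted p = 0.00224, edgeR). PSPH was at 51.3 and 46.9 CPM, a log2 fold change of 0.13 (SE 0.04) whose adjusted p of 0.049 rose to between 0.0678 and 0.135 without any of the 6 samples. Its pseudogene PSPHP1 held 317 to 434 reads of its own, and how the counting shared reads between them is not given in the sources used here. MTHFD2 was at 72.7 and 67.1 CPM, with a log2 fold change of 0.11 (SE 0.04) and an adjusted p of 0.0394. That call was lost, with adjusted p from 0.0512 to 0.141, without si-CNN3 replicate 1 or 3 or any of the si-NC replicates. Among the fits that left out 1 sample, the call of PSPH thus held in none. That of MTHFD2 held only without si-CNN3 replicate 2 (adjusted p = 0.0455, edgeR). DESeq2 called neither gene (adjusted p = 0.216 for PSPH and 0.183 for MTHFD2). Both calls were also lost in edgeR with no filter on low counts (0.119 and 0.1).

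PHGDH, the first enzyme of serine synthesis, was at 146 and 143 CPM in the si-CNN3 and si-NC groups, with a log2 fold change of 0.04 (SE 0.03, adjusted p = 0.509, edgeR). SHMT2 had a log2 fold change of 0.07 with an interval from 0.01 to 0.13 (adjusted p = 0.12, edgeR), and in both of these genes the groups did not overlap. SHMT2 passed the test when scaled by total counts alone (adjusted p = 0.0353). ALDH1L2, which oxidises a mitochondrial folate, was the rarest member at 15 to 28 reads per sample, and its interval from -0.39 to 0.78 left the direction undetermined at this depth. Its exons overlap those of C12orf45 on the other strand, which held 205 to 249 reads per sample, and the part of those reads in the ALDH1L2 value was not tested.

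Of the 7 other enzymes of amino-acid and carbon metabolism, ASNS rose, none fell and the other 6 did not pass the test. ASNS makes asparagine from aspartate and is the textbook target of the amino-acid response. It was at 66.5, 67.8 and 71.5 CPM with si-CNN3 and at 50.7, 49.3 and 52.5 CPM with si-NC. The lowest treated sample lay far above the highest control, giving a fold change of 1.35 (log2 0.43, SE 0.04, adjusted p = 1.13e-11, edgeR). The exact two-sided permutation test gave p = 0.1 for ASNS.

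The remaining enzymes lay close to 0, and the median of all 7 was -0.03 on the log2 scale. CBS and CTH convert homocysteine to cysteine. CBS had a log2 fold change of 0.02 (interval -0.03 to 0.07), and CTH, on 130 to 200 reads, had -0.06 (interval -0.27 to 0.16). ALDH18A1 and PYCR1 make proline: ALDH18A1 had -0.03 (interval -0.09 to 0.03), and PYCR1 had -0.11 (interval -0.23 to 0.00, adjusted p = 0.211, edgeR). PCK2, the mitochondrial phosphoenolpyruvate carboxykinase, had -0.04 (interval -0.12 to 0.05). GPT2, the mitochondrial alanine aminotransferase, had 0.01 (interval -0.06 to 0.09). Over all 17 members that were not called, 13 had an interval within 0.2 of 0 on the log2 scale, so that a change of the size seen in ASNS lay outside it.

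Of the 8 amino-acid transporters, SLC7A11, SLC3A2 and SLC7A5 rose, SLC1A5 fell, and SLC6A9, SLC38A2, SLC7A1 and SLC1A4 did not pass the test. The 3 that rose are the parts of a pair of exchangers. SLC3A2 (CD98) is the shared heavy chain, SLC7A5 (LAT1) joins it to import leucine and other large neutral amino acids, and SLC7A11 (xCT) joins it to import cystine in exchange for glutamate. SLC7A11 was at 19.5, 21.9 and 21.2 CPM with si-CNN3 and at 14.3, 13.0 and 13.5 CPM with si-NC. No SLC7A11 control came near a treated sample, and the fold change was 1.54 (log2 0.62, SE 0.07, 95% interval 0.48 to 0.76, adjusted p = 1.17e-09, edgeR).

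SLC3A2 was at 773, 771 and 760 CPM with si-CNN3 and at 654, 659 and 642 CPM with si-NC. The replicates of SLC3A2 were tight and the groups far apart, at a log2 fold change of 0.24 (SE 0.02, adjusted p = 3.89e-11, edgeR). SLC7A5 was at 2730, 2713 and 2608 CPM with si-CNN3 and at 2359, 2352 and 2267 CPM with si-NC. The groups of SLC7A5 were separate as well, with a log2 fold change of 0.21 (SE 0.02, adjusted p = 1.59e-09, edgeR). On these 47332 to 58538 reads per sample a 15.4% increase stood far outside the error. Against the other called transporters, SLC1A5 (ASCT2), the glutamine and neutral amino-acid exchanger, fell. It was at 206, 195 and 196 CPM with si-CNN3 and at 217, 210 and 217 CPM with si-NC, a log2 fold change of -0.11 (SE 0.03, adjusted p = 0.00602, edgeR). In limma on FPKM the adjusted p of SLC1A5 lay between 0.0579 and 0.144. SLC38A2 (SNAT2), the adaptive transporter for small neutral amino acids, had a log2 fold change of 0.04 (interval -0.01 to 0.08). The cationic transporter SLC7A1 had 0.01 (interval -0.05 to 0.07), the glycine transporter SLC6A9 had 0.08 (interval -0.03 to 0.20), and the alanine and serine transporter SLC1A4 had -0.08 (interval -0.21 to 0.05).

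The 3 secreted factors were all called, STC2 and ADM2 higher and VEGFA lower. ADM2 (intermedin), a peptide hormone of the calcitonin family, was at 7.74, 7.81 and 8.54 CPM with si-CNN3 and at 4.39, 3.98 and 4.54 CPM with si-NC. Its groups lay as far apart as those of CHAC1, with a fold change of 1.87 (log2 0.90, SE 0.12, 95% interval 0.67 to 1.14, adjusted p = 3.29e-08, edgeR) on 88 to 156 reads per sample. STC2 (stanniocalcin 2), a secreted glycoprotein induced by stress of the endoplasmic reticulum, was at 107, 102 and 104 CPM with si-CNN3 and at 92.8, 85.0 and 87.4 CPM with si-NC. The STC2 groups did not overlap, and the log2 fold change was 0.25 (SE 0.04, adjusted p = 6.17e-07, edgeR). VEGFA, the angiogenic growth factor, was at 532 ± 12.2 CPM with si-CNN3 and 560 ± 14.7 CPM with si-NC (SD, n = 3). Its log2 fold change was -0.07 (SE 0.03, adjusted p = 0.0435, edgeR) and stayed between -0.09 and -0.05 in the 17 alternatives, but the call was lost in 10 of them. These were the fits without si-CNN3 replicate 2 (adjusted p = 0.216), si-NC replicate 1 (0.293) or si-NC replicate 3 (0.0629), total-count scaling (0.116), upper-quartile scaling (0.0649), thinned counts (0.0652), DESeq2 (0.0517) and limma on FPKM in its 3 forms (0.175 to 0.361). XPOT, which exports transfer RNA from the nucleus, had a log2 fold change of 0.06 (interval 0.00 to 0.12, adjusted p = 0.177, edgeR).

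Per kilobase of transcript, the members spanned a wide range of levels. In the si-NC samples, SLC7A5 came first at 745 ± 16.7 FPKM (counts divided by transcript length and library total; SD, n = 3), SLC38A2 followed at 719 ± 6.27 FPKM and SLC3A2 at 570 ± 8.62 FPKM. SLC7A5 and SLC38A2 differed by little more than their spread, whereas SLC3A2 and DDIT4 (432 ± 15.9 FPKM) were clearly lower. This order rests on the gene lengths behind the FPKM values, 3100 bases for SLC7A5 and 1430 for SLC38A2. Those lengths were not checked, and the SD does not include an error in them. In normalized CPM, the si-NC means were 2326 for SLC7A5 and 1036 for SLC38A2. ATF4 was seventh at 188 ± 4.85 FPKM. The lowest were SLC7A11 at 2.59 FPKM, ADM2 at 1.41 FPKM and ALDH1L2 at 0.260 FPKM. The 3 members that rose most, ADM2, CHAC1 and SLC7A11, were among the 4 lowest, and CHAC1 stood at 3.38 FPKM in the controls. Of the 6 most abundant members, SLC7A5 and SLC3A2 rose, DDIT4 and VEGFA fell, and SLC38A2 and CBS did not pass the test.

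**Figure D3:**
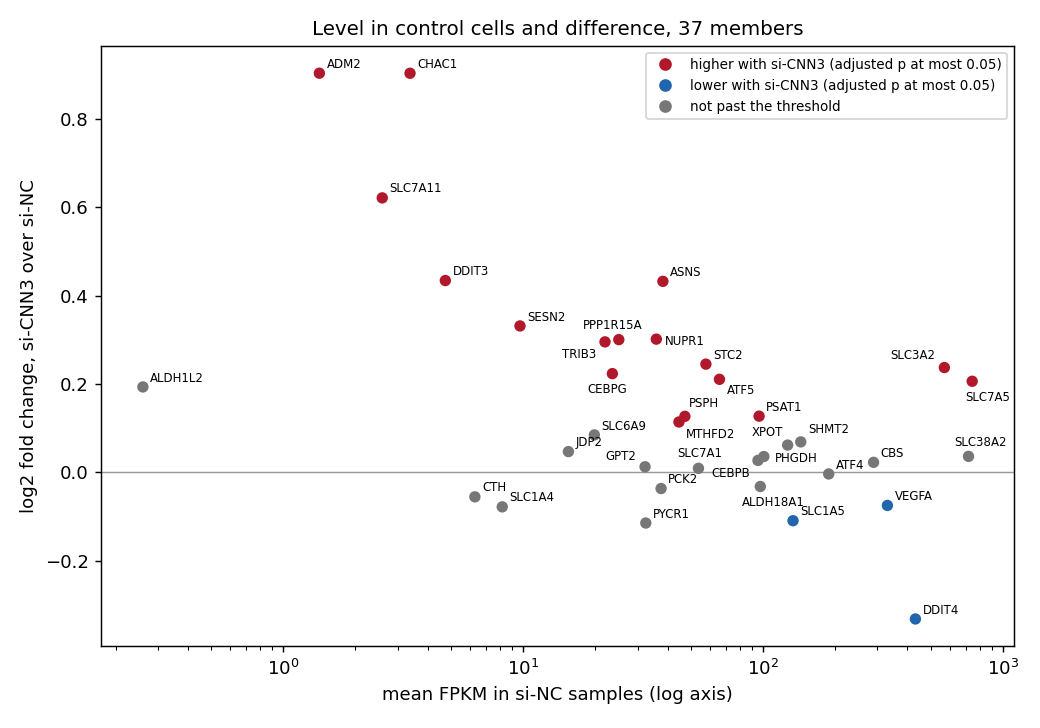
Mean FPKM in the 3 si-NC samples (x axis, log scale) against the log2 fold change of si-CNN3 over si-NC (y axis) for the 37 members, each point a gene. ADM2, CHAC1 and SLC7A11 (0.62 or more) lie under 4 FPKM, while the members from PHGDH (100.8 FPKM) upward stay between -0.33 and 0.24.

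ATF4 and C/EBP proteins bind together at a composite site whose core can be written TGATGNAA. This core was searched on both strands in RefSeq promoter windows of the GRCh38.p14 build, from 250 bases before to 50 bases after the first listed start of each gene, for the 29 members with an entry. It lay in 4 of them (13.8%), CHAC1, ASNS, SLC3A2 and SLC7A1, against 1.7% of the 11105 windows of tested genes and 3.67% of all 27305 windows. Of these 4 genes, 3 were among the 14 members with an entry that rose, none among the 2 that fell and 1 (SLC7A1) among the 13 that were not called. With every listed start of a gene taken, a choice made after seeing the data, 8 members (27.6%) held the core, against 2.76% of tested genes, and with the bases before the first start alone, 2 members (6.9%) held it, against 1.39%. The members were chosen as ATF4, its partners and its targets, so these shares are not an independent comparison. The sites are shown with their flanks because they include members with large and with no detected change. They are read 5′ to 3′ along the strand of the match with the core in capitals.

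CHAC1, chr15:40953252-40953279, minus strand: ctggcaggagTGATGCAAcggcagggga
ASNS, chr7:97872459-97872486, minus strand: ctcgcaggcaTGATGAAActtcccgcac
SLC3A2, chr11:62881726-62881748, minus strand: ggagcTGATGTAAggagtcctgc
CEBPG, chr19:33374061-33374088, plus strand: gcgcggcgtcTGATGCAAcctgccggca
SLC1A5, chr19:46784894-46784921, minus strand: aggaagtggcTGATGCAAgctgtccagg
SLC7A1, chr13:29595664-29595691, minus strand: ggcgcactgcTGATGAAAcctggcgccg
JDP2, chr14:75427996-75428023, plus strand: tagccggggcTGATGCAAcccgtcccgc
SLC1A4, chr2:64989382-64989409, minus strand: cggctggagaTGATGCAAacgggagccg

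CHAC1, ASNS, SLC3A2 and CEBPG rose, SLC1A5 fell, and SLC7A1, JDP2 and SLC1A4 did not pass the test. The site of CHAC1 lay 209 bases and that of ASNS 68 bases before the start, while those of SLC7A1 and SLC3A2 lay 8 and 38 bases into the transcribed side. CEBPG, JDP2, SLC1A4 and SLC1A5 held theirs only at a start other than the first listed. In CHAC1, CEBPG, JDP2, SLC1A4 and SLC1A5 the core read TGATGCAA, so that the same 8 bases stood beside genes that rose, fell and were not called. A match of letters is a description and not a measured binding site.

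The genes around the members were examined in lists with the same fit, starting with the steps upstream of ATF4. For each list, the share to set beside it is that of all tested genes, 6.17% called higher and 7.14% lower. Of 17 genes for the eIF2 kinases, eIF2 itself, its exchange factor eIF2B and their regulators, 3 rose and 3 fell, at a median log2 fold change of -0.01. HRI (EIF2AK1) fell, from 226 ± 1.54 to 209 ± 3.19 CPM (SD, n = 3), a log2 fold change of -0.11 (SE 0.03, adjusted p = 0.00434, edgeR). The other kinases did not pass the test: PKR (EIF2AK2) had 0.06 (interval 0.00 to 0.12), PERK (EIF2AK3) had -0.08 (interval -0.23 to 0.06), and GCN2 (EIF2AK4) had -0.01 (interval -0.08 to 0.06). EIF2B2, a subunit of the exchange factor, rose by 0.21 (SE 0.05) and EIF2S1, the subunit of eIF2 that the kinases phosphorylate, by 0.13 (SE 0.03) on the log2 scale. PPP1R15B, the constitutive counterpart of PPP1R15A, fell by 0.16 (SE 0.04), and GCN1, the ribosome-bound activator of GCN2, fell by 0.11 (SE 0.03). Phosphorylation of eIF2 was not measured in these files.

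Of 15 tested genes among 16 further targets of ATF4 or CHOP, 6 rose and none fell, around a median of 0.02 on the log2 scale. ATF3, a stress-induced repressor of the same family, was at 15.0, 13.7 and 13.8 CPM with si-CNN3 and at 5.03, 6.31 and 5.38 CPM with si-NC. All 3 treated samples lay far above the controls. The increase of ATF3 was larger than that of any member, at a log2 fold change of 1.33 (SE 0.10, adjusted p = 2.48e-16, edgeR). GDF15, a stress hormone, rose by 0.51 (SE 0.17, adjusted p = 0.0392, edgeR) on 48 to 72 reads per sample. ERO1A, an oxidase of protein folding that CHOP induces, rose by 0.36 (SE 0.03), and MTHFD1L, a mitochondrial folate enzyme, by 0.18 (SE 0.04). DESeq2 called 4 of this list higher.

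Of the 20 cytosolic aminoacyl-tRNA synthetases, which charge transfer RNA with amino acids, 8 rose and none fell, with a median of 0.05. The largest increases were those of CARS1 (0.23, SE 0.05), MARS1 (0.18, SE 0.03), YARS1 (0.18, SE 0.03) and GARS1 (0.16, SE 0.03) on the log2 scale.

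Genes of the other branches of endoplasmic reticulum stress leaned the other way. Of 17 genes of the ATF6 and XBP1 arm, 1 rose and 7 fell, with a median log2 fold change of -0.04. SDF2L1, a chaperone cofactor, fell by 0.16 (SE 0.05), the disulphide isomerase PDIA6 by 0.13 (SE 0.03), CRELD2 by 0.12 (SE 0.04) and SEL1L, an adaptor of protein degradation, by 0.11 (SE 0.04) on the log2 scale. The SDF2L1 groups overlapped, with si-CNN3 replicate 3 at 42.2 CPM and si-NC replicate 3 at 41.6 CPM. XBP1 and HSPA5 are named after their values were seen. XBP1 rose by 0.10 (SE 0.03, adjusted p = 0.0468, edgeR). The chaperone HSPA5 (BiP) was at 713 ± 13.4 and 744 ± 11.9 CPM, a log2 fold change of -0.06 that did not pass the test (adjusted p = 0.0998, edgeR). DESeq2 called 3 genes of this list lower and none higher, and limma on log2(FPKM + 1) called 3 lower and 1 higher.

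No gene passed the test as higher in the lists of folate-cycle genes and of other amino-acid transporters. Both lists leave out the members, such as MTHFD2, SLC7A11, SLC3A2 and SLC7A5, which rose, and SLC1A5, which fell. They also do not hold MTHFD1L or SLC38A1 from the list of further targets, which rose as well. Of all tested genes, 6.17% were called higher, so lists this short can hold none at that share. Of 9 tested folate-cycle genes, MTR and TYMS fell, by 0.11 (SE 0.04) and 0.10 (SE 0.04) on the log2 scale, and DESeq2 called neither. The TYMS groups overlapped. Of 10 tested transporters outside the members, the taurine transporter SLC6A6 fell by 0.20 (SE 0.04) and the glutamate transporter SLC1A3 by 0.16 (SE 0.04). Of 13 tested genes of amino-acid sensing by mTORC1 outside the members, edgeR, DESeq2 and limma called 0, and 2 had an unadjusted p under 0.05 in edgeR. The list leaves out the leucine sensor SESN2, a member that rose by 0.33 (SE 0.05) on the log2 scale. Of all tested genes, edgeR called 13.3% in either direction. The median log2 fold change of this list was -0.015.

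**Figure D4:**
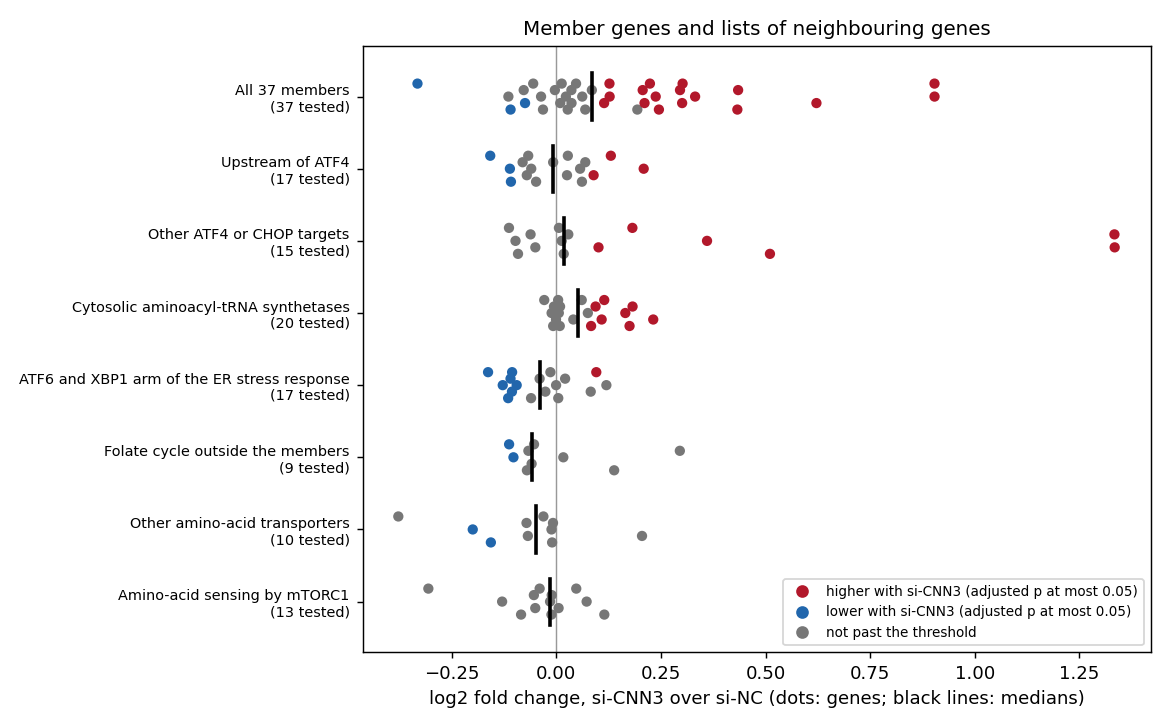
Log2 fold change of si-CNN3 over si-NC (x axis) for the 37 members and for 7 lists of neighbouring genes, each dot a tested gene and each black line the median of its list. The medians run from 0.08 in the members to -0.06 in the folate list, and the far right dots in the list of other targets are ATF3 and INHBE, the latter with a mean under 1 CPM in both groups.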

How the data were processed

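RNA from 6 SiHa samples was sequenced (TruSeq libraries, Illumina). Per the labels, the authors filtered and aligned the reads (TopHat2 2.0.9 and Bowtie2 2.0.6 in the submitters' processing notes, which also name HTSeq), and deposited raw counts per Ensembl gene without normalization. The authors also deposited FPKM values, which equal count over gene length and column total. Genome build, annotation, strand setting and the treatment of reads that match several places are not given in the sources used here, so reads of genes that overlap on opposite strands cannot be told apart. Of 48162 rows, 45038 were named from a table of Ensembl identifiers and 3124 were kept by identifier. Overlapping genes were read from GENCODE release 29.

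Sample titles gave the group and replicate number. The counts were compared with edgeR 4.0.16 in R 4.3.3 (quasi-likelihood test by glmQLFit and glmQLFTest on a model of condition alone, after TMM and filterByExpr at its defaults). P-values were adjusted by Benjamini-Hochberg across the 15860 tested genes, and 0.05 was the threshold. The standard error is the absolute log2 fold change over the square root of F, intervals are 95%, and CPM values use TMM-scaled totals. CNN3, ATF4, ASNS, CHAC1 and DDIT4 also had an exact two-sided permutation test on CPM. The script was tested on simulated counts. The members and lists were chosen with earlier results of these data known, so a pattern seen before, such as higher ATF4 targets, is not independent support. Values in every sample are given for ATF4, DDIT3, ATF5, TRIB3, ASNS, CHAC1 and each called member with an absolute log2 fold change of at least 0.2; up to 4 called genes with a mean of at least 1 CPM are named per list, those with the largest changes, and the 4 eIF2 kinases always. Other members are given by level, change and call. Alternatives were RLE, upper-quartile and total-count scaling, DESeq2 1.42.0, other count filters, a replicate block, thinned counts and each sample left out. Others were limma 3.58.1 on log2 FPKM with 1 or 0.1 added. Adding 1 understates changes of low genes. Promoter sequences are from RefSeq (GRCh38.p14), which held 29 of the 37 members. NUPR1, PSPH, SHMT2, ALDH1L2, PYCR1, GPT2, SLC7A11 and VEGFA had no entry. SLC6A14, CASTOR2 and PECAM1 were not analysed here.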

Additional observations from a re-analysis of the deposited data

How the results depend on the processing

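Of the 20 called members, 13 were called in each of the 17 alternatives and 7 (DDIT3, TRIB3, PSAT1, PSPH, MTHFD2, SLC1A5 and VEGFA) lost the call in at least 1, while 0 changed direction. SHMT2 and XPOT, not called, passed in at least 1. DESeq2 called 433 genes higher and 640 lower, with 14 members higher and 2 lower. In limma on log2 FPKM with means under 1 FPKM left out, 799 genes were higher and 564 lower with 1 added. With 0.1 added, 789 were higher and 564 lower. With 1 added and no filter, 316 were higher and 269 lower. In each of these limma settings 1 member was lower. With the strict core TGATGCAA, 3.45% of member promoters held the element, against 0.468% of those of tested genes and 0.923% of all; before the start only, the TGATGNAA shares were 6.9%, 1.39% and 3.19%. The causes were not tested. Leaving out 1 sample in turn gave 691 to 812 genes higher, 855 to 958 lower, 14 to 15 members higher, 2 to 3 lower, and a CNN3 log2 fold change from -1.06 to -0.92. With the replicate block, 1272 genes were higher and 1455 lower, with 19 members higher and 3 lower, the added ones being SHMT2 (adjusted p = 0.0395) and XPOT (0.0443). Same-numbered samples are not stated to share a day or culture, so the numbers were not taken as pairs. Such samples deviated together only weakly (r = 0.0105, 0.0329 and 0.0275 across genes), though each correlated best with its own number. These correlations cannot exclude pairing. Depth limits DDIT3, CHAC1, ADM2, CTH and ALDH1L2, each read at 200 counts per sample or fewer.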
